A study of Mus musculus with 9 samples.

Results

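The genes described here are the ion and organic solute carriers of the families Slc22a, Slco, Slc4a, Slc5a, Slc9a, Slc12a, Slc13a, Slc26a and Slc34a. They were taken by gene symbol from the array annotation and numbered 62 genes on 66 spotted probes, of 15096 genes with a single symbol on 16874 probes. The match of symbols used no measured value, but the members were chosen with earlier results of these data known. All 62 matched the reference by gene ID. Slc4a3 and Slco1a5 had several probes, as did Slco1b2, and the probes of a gene were averaged. Slc4a1ap, Slc9a3r1 and Slc9a3r2 match the symbols but are not carriers: the first is a protein named for binding Slc4a1 and the others are scaffold proteins under the membrane.

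Carriers of these families move salts, acid and base equivalents, sugars, phosphate, sulphate, drugs and bile constituents across cell membranes. In the kidney they line the tubule, where those on the luminal side recover solutes from the urine and those on the basolateral side take organic ions from the blood. In the liver, Slco and Slc22a carriers on the hepatocyte surface bring bile acids, bilirubin and drugs into the cell. In the brain, members act in neurons, at the choroid plexus and at the capillary wall.

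The study set male SJL/J mice against male C57BL/6J mice, both inbred strains aged 8 weeks, in liver, kidney and whole brain. RNA of 5 mice a strain was pooled for each tissue, 20 ug of each pool was labelled with Alexa Fluor 647 for SJL/J and Alexa Fluor 555 for C57BL/6J, and the same pair of pools was hybridised to 3 arrays a tissue, 9 arrays in all. The deposited values are log ratios, read here as log2 of SJL/J over C57BL/6J; this direction is likely from the dyes and titles but is not stated, and no array had the dyes exchanged. The 3 arrays of a tissue share their pools, so p-values measure only the spread between arrays and not that between mice. The values are ratios without levels, so neither a gene's abundance nor the labelled tissue could be checked against marker levels, and fewer cells of a type cannot be told apart from less RNA per cell. The liver and kidney arrays carry a brain tissue label for the first channel, against their titles and source names, which were followed.

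Arrays of a tissue correlated over all 23040 probes with r of 0.766 to 0.793 in liver, 0.778 to 0.787 in kidney and 0.522 to 0.765 in brain, where array 3 had the largest residual SD of the 9 arrays (0.297). Brain array 3 correlated more closely with the kidney arrays (r of 0.584 to 0.627) than with brain arrays 1 and 2 (0.522 and 0.57), which reached 0.422 to 0.545 with the kidney arrays. For the 62 genes, brain calls and calls of the tissue differences with brain are therefore given below with and without it. Other brain values, and brain counts of the further gene lists, are given with it only. As a check of direction, Nnt, a mitochondrial gene partly deleted in C57BL/6J, had a mean log2 ratio of 0.48 in liver, 0.67 in kidney and 0.61 in brain, above 0 on all arrays (lowest 0.15), and passed the test in kidney and brain (adjusted p = 0.078, 0.0198 and 0.0415). Probes whose number is a multiple of 8 had a median log2 ratio of -0.19 in liver, -0.36 in kidney and -0.17 in brain, against 0.03, 0.06 and 0.03 for the other probes. Lines of 24 consecutive probe numbers also had medians of their own: the 50 lines that hold the carrier genes ranged from -0.50 to 0.23 in liver, -0.25 to 0.27 in kidney and -0.18 to 0.25 in brain. Of the 62 genes, 27 shared a line with another of them.

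Most of the carriers had similar ratios to the rest of the array. In liver 5 of the 62 genes were higher and 8 lower in SJL/J at an adjusted p under 0.05, which is 8.06% and 12.9%, against 10.1% and 14.4% of all genes. In kidney 6 were higher and 8 lower, or 9.68% and 12.9%, against 13.5% and 13.9% of all genes. In brain 3 were higher and 6 lower, or 4.84% and 9.68%, against 7.55% and 9.61% of all genes. These shares were near or below those of all genes. The median ratio of the 62 genes was -0.03 in liver, -0.01 in kidney and -0.08 in brain, and that of all genes -0.02, 0.03 and 0.01. The count of 13 in liver was 5, 8 and 7 without liver arrays 1, 2 and 3. That of 14 in kidney was 5, 9 and 9 without kidney arrays 1, 2 and 3, and that of 9 in brain was 5 and 4 without brain arrays 1 and 2. The share of all genes that passed moved with these counts, to 14.4%, 15.9% and 14.5% in liver (24.5% with all arrays), 14.4%, 15.1% and 15.8% in kidney (27.4%), and 10.1% and 6.98% in brain (17.2%). Without brain array 3, 7 genes passed in brain, all of them among the 9. The brain means of Slc22a4, Slc22a21, Slc22a2, Slc4a10, Slc5a5, Slc5a7 and Slc9a8 were then 0.42, 0.79, -0.55, -1.18, -1.07, -0.76 and -2.36, with adjusted p between 9.3e-06 and 0.0202, and Slc9a9 (0.32) and Slc22a15 (-0.23) did not pass. Liver minus brain was then 0.76 for Slc9a8, 0.87 for Slc5a5, 0.47 for Slc13a3 and -0.85 for Slc13a1, which passed, and 0.43 for Slc5a4b, which did not.

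Of the 62 genes, 40 passed in no tissue (49% of all genes did so), 11 in 1, 8 in 2 and 3 in all 3. Of all genes 36.3% passed in 1 tissue, 11.2% in 2 and 3.44% in all 3. The genes that passed in every tissue were Slc22a4, Slc9a8 and Slc9a9. Slc22a4 and Slc9a9 lay above 0 on all 9 arrays, as did 5.81% of all genes. Slc22a5, Slc22a26, Slc5a5, Slc5a7 and Slc9a8 lay below 0 on all 9, as did 7.47% of all genes. With each tissue's mean taken as 1 value, Slc9a8 alone passed for a ratio shared by the tissues, against 0.709% of all genes, and 10 of the 62 genes did so at an unadjusted p under 0.05 (15.9% of all genes).

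**Figure D1:**
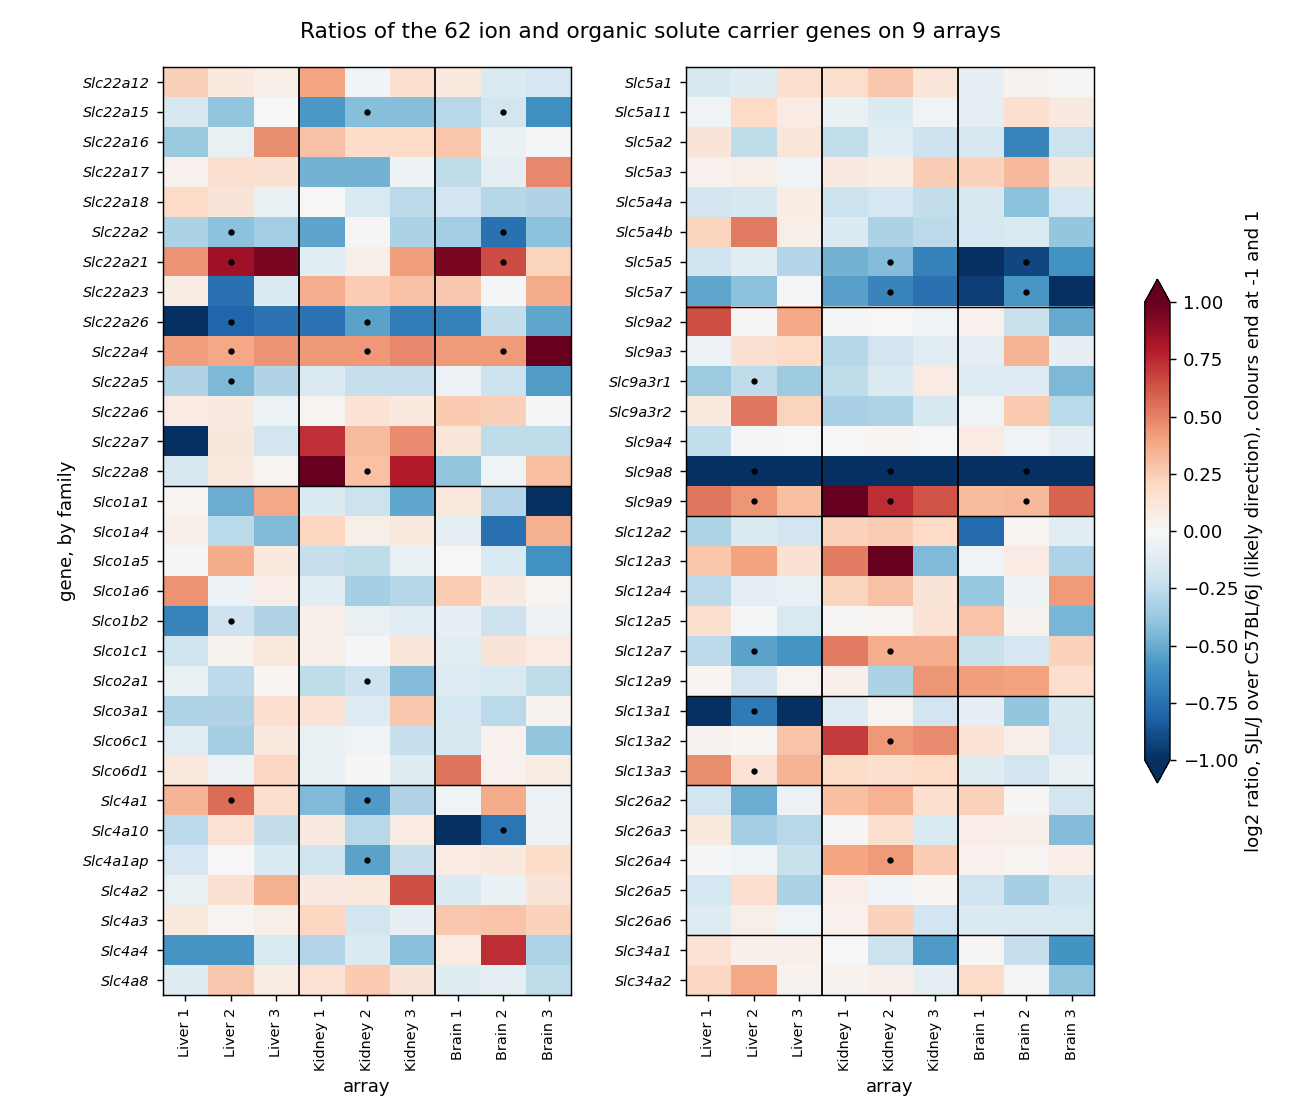
Log2 ratio of SJL/J over C57BL/6J for the 62 genes (rows, by family) on the 9 arrays (columns, by tissue), with colours ending at -1 and 1. A dot in the middle column of a tissue marks a gene that passed there; Slc9a8 is low on every array, Slc22a4 and Slc9a9 are high on every array, and most other rows are pale or mixed.

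Slc22a4 and Slc22a5 lie in one cluster with ratios of opposite sign. Slc9a9 had the highest kidney mean of the 62 genes, and Slc22a26 the lowest liver mean of the Slc22a family. The RefSeq promoters of these 4 genes, whose ratios kept one sign on all 9 arrays, are therefore shown. Each runs 5′ to 3′ from 250 bases before the start site to 50 after it, on build GRCm38.p6; capitals mark matches to the GC box GGGCGG on either strand, which some factors of the Sp family bind.
Slc22a4, chr11:54028055-54028354, minus strand: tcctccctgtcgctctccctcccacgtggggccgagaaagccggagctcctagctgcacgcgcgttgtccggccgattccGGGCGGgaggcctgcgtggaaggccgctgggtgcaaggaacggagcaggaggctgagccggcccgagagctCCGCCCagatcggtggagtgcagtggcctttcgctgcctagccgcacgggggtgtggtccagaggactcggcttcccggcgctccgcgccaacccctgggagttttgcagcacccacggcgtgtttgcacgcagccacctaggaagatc
Slc22a5, chr11:53891654-53891953, minus strand: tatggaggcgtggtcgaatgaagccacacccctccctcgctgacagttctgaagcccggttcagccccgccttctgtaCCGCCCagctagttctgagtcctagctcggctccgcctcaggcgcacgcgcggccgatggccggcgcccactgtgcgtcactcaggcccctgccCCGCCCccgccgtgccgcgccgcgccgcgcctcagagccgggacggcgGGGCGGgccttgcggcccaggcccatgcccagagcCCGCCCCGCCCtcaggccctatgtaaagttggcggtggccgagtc
Slc9a9, chr9:94669642-94669941, plus strand: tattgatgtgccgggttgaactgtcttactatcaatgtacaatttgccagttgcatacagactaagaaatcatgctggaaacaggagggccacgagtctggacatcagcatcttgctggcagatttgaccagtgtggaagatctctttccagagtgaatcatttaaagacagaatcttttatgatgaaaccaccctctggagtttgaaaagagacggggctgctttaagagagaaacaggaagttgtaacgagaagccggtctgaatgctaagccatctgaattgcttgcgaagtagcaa
Slc22a26, chr19:7802618-7802917, minus strand: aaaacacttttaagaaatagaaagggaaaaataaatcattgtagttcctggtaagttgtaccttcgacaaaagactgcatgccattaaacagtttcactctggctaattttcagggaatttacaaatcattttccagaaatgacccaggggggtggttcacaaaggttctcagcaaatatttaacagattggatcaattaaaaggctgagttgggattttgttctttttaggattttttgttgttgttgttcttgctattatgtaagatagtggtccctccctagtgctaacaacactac
The GC box was found in Slc22a4 and Slc22a5 and in 35.7% of all 32851 promoters of the table. The TATA box TATAAA (13.6% of promoters), the nuclear receptor half-site AGGTCA (16.3%) and the HNF1 half-site GTTAAT (7.1%) were sought in the same way, on both strands, and these letters are in none of the 4 windows. Among the 52 of the 62 genes with a promoter in the table, 23 held a GC box, 13 a TATA box, 7 a nuclear receptor half-site and 6 an HNF1 half-site in at least 1 window. These are counts of genes, which may have several windows, and the percentages above are of single windows. The counts can therefore not be set against those percentages.

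The Slc22a family holds the organic cation, carnitine and organic anion carriers, and 14 were measured. Of these 2 were higher and 3 lower in liver, 2 and 2 in kidney, and 2 and 2 in brain. Of all genes, 10.1% were higher and 14.4% lower in liver, 13.5% and 13.9% in kidney, and 7.55% and 9.61% in brain. The family counts below stand beside these shares. Slc22a5, Slc22a21 and Slc22a4 follow each other on chromosome 11 with no protein-coding gene between them. Their proteins, Octn2, Octn3 and Octn1, carry carnitine, carnitine and ergothioneine. The 3 neighbours did not share a direction.

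Slc22a4 had log2 ratios of 0.42, 0.39 and 0.45 on the liver arrays, 0.44, 0.43 and 0.48 on the kidney arrays, and 0.43, 0.42 and 1.01 on the brain arrays. Every array was above 0, and brain array 3 stood apart from the other 8. The means were 0.42 ± 0.03, 0.45 ± 0.02 and 0.62 ± 0.34 (SD, n = 3 arrays each), with adjusted p = 0.0207, 0.0139 and 0.00479. The line of spots that holds it had medians of 0.20, 0.27 and 0.25, and with line and column medians removed Slc22a4 fell short of the threshold in each tissue, at 0.20, 0.13 and 0.33 (adjusted p = 0.255, 0.462 and 0.0779). Leaving out any 1 liver array (adjusted p = 0.0725 to 0.0951) or any 1 kidney array (0.0635 to 0.0726) also ended the call there.

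Slc22a21 was higher in SJL/J in liver, at 0.45, 0.85 and 0.94, and in brain, at 0.94, 0.65 and 0.23. In kidney its arrays straddled 0, at -0.10, 0.06 and 0.42. The mean ratios were 0.75 ± 0.26 in liver (adjusted p = 0.00417), 0.12 ± 0.27 in kidney (adjusted p = 0.568) and 0.60 ± 0.36 in brain (adjusted p = 0.0184). All liver arrays lay above all kidney arrays, but the difference of 0.62 between liver and kidney did not pass (adjusted p = 0.0577). Here and below, such separation of arrays describes single genes, and its share over all genes is not given. At an unadjusted limma p under 0.05, 29% of the 62 genes and 35.2% of all genes differed between liver and kidney. The brain call of Slc22a21 ended without brain array 1 (adjusted p = 0.121) or 2 (0.096). Slc22a5 ran the other way, at -0.30, -0.45 and -0.30 in liver, -0.14, -0.23 and -0.23 in kidney, and -0.06, -0.22 and -0.56 in brain. It fell in liver, by 0.35 ± 0.09 (adjusted p = 0.027), and this call ended without any 1 of the liver arrays (0.0822 to 0.14) and with line and column medians removed (0.134). Its kidney and brain means were -0.20 and -0.28.

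Slc22a26, a mouse gene of the organic anion branch, had the lowest liver ratio of its family. Its values were -1.60, -0.79 and -0.74 in liver, -0.74, -0.54 and -0.70 in kidney, and -0.68, -0.24 and -0.52 in brain. All 9 arrays were below 0, and liver array 1 was the lowest. SJL/J RNA stood at 0.485 times the C57BL/6J level in liver (mean -1.04 ± 0.48, adjusted p = 0.000648) and 0.634 times in kidney (-0.66 ± 0.11, adjusted p = 0.00929). The brain mean of -0.48 ± 0.22 did not pass (adjusted p = 0.052). The kidney call ended without kidney array 1 (adjusted p = 0.0614) or 3 (0.0543). With liver array 1 left out the liver mean was -0.77 and still passed.

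Of the other organic anion carriers named, only Slc22a8 passed in kidney. Slc22a8, or Oat3, takes organic anions from the blood into proximal tubule cells. It had log2 ratios of -0.16, 0.10 and 0.03 in liver, 1.02, 0.29 and 0.79 in kidney, and -0.39, -0.04 and 0.30 in brain. Every kidney array lay above every liver array; the kidney mean of 0.70 ± 0.37 passed (adjusted p = 0.00613), as did the difference of liver minus kidney of -0.71 (adjusted p = 0.0377). The kidney call ended without kidney array 1 (adjusted p = 0.0636), and the difference without kidney array 1 or 3, any 1 liver array or brain array 2 (0.0503 to 0.139) and with line and column medians removed (0.102). Slc22a6, or Oat1, its neighbour on chromosome 19 with the same role, had a kidney mean of 0.09 ± 0.05 with a 95% interval of -0.11 to 0.28. Slc22a7, or Oat2, had -1.33, 0.11 and -0.18 in liver and 0.73, 0.31 and 0.47 in kidney. Its liver mean of -0.47 ± 0.76 and kidney mean of 0.51 ± 0.21 did not pass, while the difference of -0.97 did (adjusted p = 0.0445). It was smaller without liver array 1, at -0.54 (adjusted p = 0.0858), and it ended too without liver array 3 (0.059), without any 1 kidney array (0.0734 to 0.137), and without brain array 1 (0.0512) or 2 (0.0574), which add to the estimate of the spread.

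Slc22a2, or Oct2, the basolateral organic cation carrier of the proximal tubule, had -0.31, -0.41 and -0.35 in liver, -0.53, 0.01 and -0.32 in kidney, and -0.34, -0.75 and -0.41 in brain. Only kidney array 2 was not below 0. The liver mean of -0.36 ± 0.05 (adjusted p = 0.0415) and the brain mean of -0.50 ± 0.22 (adjusted p = 0.0137) passed. Its only probe has a number that is a multiple of 8 and its line had a liver median of -0.31; with line and column medians removed the liver value was 0.11 and the brain value -0.28, and neither passed (adjusted p = 0.622 and 0.181). The liver call also ended without any 1 liver array (0.117 to 0.159) or kidney array 3 (0.0597), and the brain call without brain array 2 (0.111). In kidney the mean of -0.28 ± 0.27 passed without kidney array 2 (0.0496). Slc22a15, which carries zwitterions in human cells, had means of -0.18 ± 0.20 in liver, -0.48 ± 0.09 in kidney and -0.36 ± 0.23 in brain. It fell in kidney (adjusted p = 0.0085; 0.0678 without kidney array 1) and in brain (adjusted p = 0.0442). The brain call ended without any 1 of the brain or kidney arrays or liver array 1 (adjusted p = 0.0608 to 0.174). Slc22a12, the renal urate exchanger, had a kidney mean of 0.18 ± 0.21 and did not pass in any tissue; its line had a liver median of -0.43, and with line and column medians removed its liver value was 0.54 (0.13 as deposited) and passed (adjusted p = 0.00466).

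**Figure D2:**
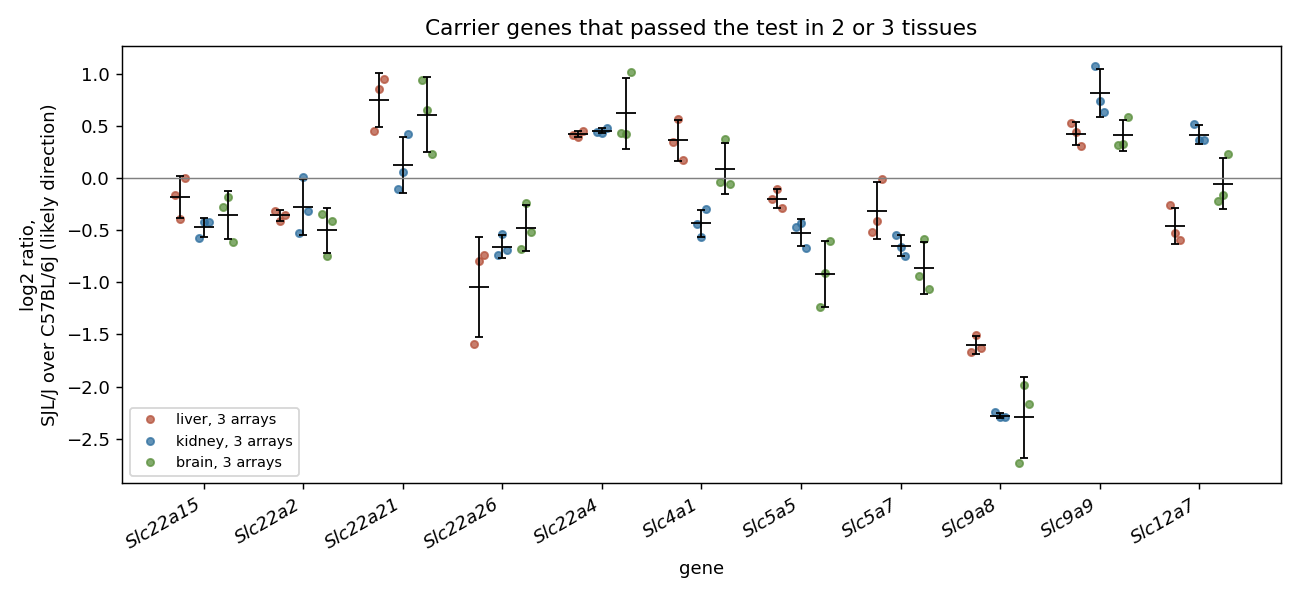
Log2 ratio of SJL/J over C57BL/6J on each array (points) for the 11 genes that passed in 2 or 3 tissues, with the mean and SD of the 3 arrays of a tissue (black). Slc12a7 and Slc4a1 lie on opposite sides of 0 in liver and kidney, while Slc5a5 and Slc5a7 lie lowest in brain.

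The Slco family takes up bile acids, bilirubin, thyroid hormones and prostaglandins, and 10 members were measured. Among them 1 passed as lower in liver and 1 in kidney (14.4% and 13.9% of all genes), none passed as higher, and none passed in brain. Slco1b2, the main bilirubin and drug uptake carrier of mouse hepatocytes, had -0.67, -0.21 and -0.30 in liver, 0.05, -0.07 and -0.11 in kidney, and -0.08, -0.21 and -0.06 in brain. The liver arrays were all below 0, and the liver mean of -0.39 ± 0.24 passed (adjusted p = 0.0162). Its 3 probes differed in liver, at -0.86, -0.10 and -0.21. The call ended with the median of the probes (adjusted p = 0.0662), with line and column medians removed (0.428) and without liver array 1 (0.144). In brain the same probes read 0.02, -0.03 and -0.34, and the last passed in the probe-level fit (adjusted p = 0.0336). Slco2a1, a prostaglandin carrier, fell in kidney by 0.30 ± 0.12 (adjusted p = 0.0311), a call that ended without any 1 kidney array (0.0736 to 0.192) and with line and column medians removed (0.182).

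Slco1c1, Slco1b2, Slco1a4, Slco1a1, Slco1a6 and Slco1a5 form a run on chromosome 6 with at most 1 protein-coding gene between neighbours. The Slco1a genes are close copies of each other, so a probe may read several of them and their separate values are uncertain. Slco1a1, an organic anion carrier of liver and kidney, had 0.02, -0.50 and 0.39 in liver, -0.13, -0.21 and -0.52 in kidney, and 0.11, -0.29 and -1.11 in brain. Its liver arrays lay on both sides of 0, with a mean of -0.03 ± 0.44. Slco1a4, which also acts at the blood-brain barrier, had means of -0.22 ± 0.25 in liver and -0.16 ± 0.55 in brain. Slco1c1, the thyroxine carrier of brain capillaries, had a brain mean of 0.03 ± 0.13, with a 95% interval of -0.17 to 0.24.

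The Slc4a family exchanges or cotransports bicarbonate, and 7 genes were measured, with 1 higher in liver, 2 lower in kidney and 1 lower in brain. Slc4a1, the anion exchanger of red cells and of acid-secreting cells of the collecting duct, had 0.34, 0.56 and 0.17 in liver, -0.44, -0.56 and -0.30 in kidney, and -0.04, 0.37 and -0.06 in brain. Liver and kidney arrays did not overlap and lay on opposite sides of 0. The means of 0.36 ± 0.20 in liver and -0.44 ± 0.13 in kidney passed (adjusted p = 0.0381 and 0.0155), and their difference of 0.79 passed (adjusted p = 0.00699). That difference passed under every alternative run (highest adjusted p = 0.0302). The line of spots had a liver median of -0.43, and with line and column medians removed the liver value was 0.78. The tissue calls were less firm: that in liver ended without any 1 liver array (adjusted p = 0.0516 to 0.224) or kidney array 1 (0.0556), and that in kidney without kidney array 1 (0.0765) or 2 (0.108) and with the medians removed (0.115). Of 4 red cell markers, 2 were higher and 1 lower in liver (Hba-a1 0.83, Alas2 -1.96) and 1 higher in kidney (Epb42 0.62); their part in the result was not tested.

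Slc4a10, the sodium-coupled bicarbonate carrier of choroid plexus and neurons, had -1.63, -0.73 and -0.05 on the brain arrays. These arrays disagreed in size, with array 1 lowest and array 3 near 0. The liver arrays read -0.26, 0.14 and -0.24 and the kidney arrays 0.09, -0.28 and 0.08. The brain mean of -0.80 ± 0.79 passed (adjusted p = 0.0301), but not without brain array 1, at -0.39 (adjusted p = 0.178), or without array 2, at -0.84 (0.107). Of 7 choroid plexus markers, none passed in brain and their median was 0.10. Slc4a4, the basolateral sodium bicarbonate cotransporter of the proximal tubule, had means of -0.44 ± 0.25 in liver, -0.28 ± 0.14 in kidney and 0.17 ± 0.53 in brain, and Slc4a2, the widespread anion exchanger, 0.15 ± 0.22, 0.28 ± 0.31 and -0.02 ± 0.14; neither passed. Slc4a4 passed in liver without brain array 2 (adjusted p = 0.0226) or 3 (0.0279), which add to the estimate of the spread, and with each tissue fitted alone in liver (0.0331) and kidney (0.0416). Slc4a1ap fell in kidney by 0.32 ± 0.19 (adjusted p = 0.0256), but not without any 1 kidney array (0.0557 to 0.208).

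The Slc5a family couples sodium to sugars, iodide, choline and inositol. Of 8 genes 2 fell in kidney and in brain, and none passed in liver. Slc5a5, the iodide carrier of the thyroid, had -0.20, -0.11 and -0.29 in liver, -0.47, -0.43 and -0.67 in kidney, and -1.24, -0.91 and -0.61 in brain. All 9 arrays were below 0, and the liver arrays lay above the arrays of both other tissues. SJL/J stood at 0.694 times C57BL/6J in kidney (mean -0.53 ± 0.13, adjusted p = 0.00696) and 0.529 times in brain (-0.92 ± 0.31, adjusted p = 0.000454). The difference of liver minus brain was 0.72 (adjusted p = 0.0172), and that of liver minus kidney did not pass. Without kidney array 3 the kidney call ended (adjusted p = 0.0598), and without liver array 1 or 2 the difference of liver minus brain did (0.053 and 0.0593).

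Slc5a7, the choline carrier of cholinergic nerve endings, had -0.52, -0.41 and -0.01 in liver, -0.54, -0.66 and -0.75 in kidney, and -0.94, -0.58 and -1.06 in brain. The kidney and brain arrays overlapped each other and lay below those of liver, but neither liver minus kidney nor liver minus brain passed. The means were -0.31 ± 0.27, -0.65 ± 0.10 and -0.86 ± 0.25, with adjusted p = 0.0813, 0.00283 and 0.000968. The kidney and brain calls stood under every alternative run (highest adjusted p = 0.027 and 0.0274). Of 6 neuron markers, 1 was higher and 1 lower in brain (Syt1 0.94, Nefl -0.38); their part was not tested.

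The sugar carriers of the kidney did not pass. Slc5a2, the glucose carrier of the early proximal tubule, had a kidney mean of -0.19 ± 0.07 (95% interval -0.44 to 0.07), and Slc5a1, that of the late proximal tubule and gut, 0.19 ± 0.08 (-0.01 to 0.39). Slc5a4b, next to its near copy Slc5a4a on chromosome 10, had 0.22, 0.52 and 0.06 in liver, -0.13, -0.32 and -0.26 in kidney, and -0.18, -0.15 and -0.39 in brain. Every liver array lay above the others; no tissue mean passed, but liver minus kidney (0.50, adjusted p = 0.0341) and liver minus brain (0.51, adjusted p = 0.047) did. With line and column medians removed these differences were 0.02 and 0.19 (adjusted p = 0.922 and 0.347). Any 1 array left out of kidney, or liver array 1 or 2, ended both, and any 1 brain array ended the second (adjusted p = 0.0638 to 0.147).

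The Slc9a family exchanges sodium for protons, and 7 genes matched its symbol. Slc9a8, an exchanger of the Golgi and the proximal tubule brush border, had the lowest ratio of the 62 genes in every tissue. Its values were -1.67, -1.51 and -1.63 in liver, -2.24, -2.29 and -2.29 in kidney, and -2.73, -1.99 and -2.17 in brain. SJL/J read 0.329 times C57BL/6J in liver, 0.206 times in kidney and 0.204 times in brain (adjusted p = 6.5e-06, 1.36e-06 and 1.47e-06), and the mean over the tissues was -2.06 (adjusted p = 0.0126). Its only probe has a number that is a multiple of 8: of 2880 such probes, 39 in liver, 37 in kidney and 28 in brain were lower still. Of all the other probes on the array, 74 in liver, 2 in kidney and 2 in brain were lower. With line and column medians removed its values were -1.58, -1.94 and -2.20 and passed in each tissue. The part of the spot position in the low ratio was not tested. Liver minus kidney was 0.68 (adjusted p = 0.022) and liver minus brain 0.69 (0.0272); the first ended without any 1 liver or kidney array (0.0509 to 0.0683) and with the medians removed (0.148), and the second without any 1 liver array (0.0651 to 0.0858).

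Slc9a9, an exchanger of late recycling endosomes, was higher in SJL/J in every tissue. It had 0.53, 0.44 and 0.30 in liver, 1.07, 0.74 and 0.63 in kidney, and 0.32, 0.32 and 0.58 in brain. The kidney arrays lay above all others, although neither liver minus kidney (-0.39, adjusted p = 0.0901) nor kidney minus brain (0.40, adjusted p = 0.129) passed. The means were 0.42 ± 0.11 (adjusted p = 0.0138), 0.81 ± 0.23 (0.000337) and 0.41 ± 0.15 (0.0235). The kidney call stood under every alternative run, while with line and column medians removed the liver and brain values were 0.27 and 0.23 (adjusted p = 0.1 and 0.163). The liver call ended without liver array 1 (0.0932) or 2 (0.0652), and the brain call without any 1 brain array (0.0563 to 0.0816).

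Slc9a3, the luminal exchanger of the proximal tubule that recovers most filtered sodium, had a kidney mean of -0.20 ± 0.09 (95% interval -0.43 to 0.03). Its scaffold Slc9a3r1 fell in liver by 0.32 ± 0.06 (adjusted p = 0.0349), a call that ended without any 1 liver array (0.0802 to 0.147) or kidney array 2 (0.0515). The other scaffold, Slc9a3r2, had 0.10, 0.53 and 0.22 in liver and -0.33, -0.31 and -0.16 in kidney. These arrays did not overlap, and the difference of 0.55 passed (adjusted p = 0.0384), but not without any 1 kidney array or without liver array 2 or 3 (0.0673 to 0.125). Slc9a2, a luminal exchanger of gut and kidney, had a liver mean of 0.34 ± 0.32 and did not pass; its line had a liver median of -0.31, and with the medians removed the value was 0.64 and passed (adjusted p = 0.0101).

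The Slc12a family couples chloride to sodium or potassium. All 6 genes had a kidney mean above 0 (median 0.22), as did 8063 of all 15096 genes, but 1 passed (13.5% of all genes were higher there). Slc12a7, a potassium chloride cotransporter, had -0.26, -0.53 and -0.59 in liver, 0.52, 0.36 and 0.36 in kidney, and -0.22, -0.17 and 0.23 in brain. Liver and kidney arrays lay on opposite sides of 0. The means of -0.46 ± 0.18 and 0.42 ± 0.09 passed (adjusted p = 0.0102 and 0.0163), and their difference of -0.88 had the lowest adjusted p among the 62 genes (0.00339). It passed under every alternative run (highest adjusted p = 0.0187), although the kidney mean alone did not without any 1 kidney array (0.0595 to 0.11), nor the liver mean without liver array 2 (0.0619) or 3 (0.0785).

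Slc12a3, the thiazide-sensitive sodium chloride cotransporter of the distal tubule, had 0.51, 1.65 and -0.44 on the kidney arrays. They disagreed in sign, and the mean of 0.57 ± 1.05 did not pass (adjusted p = 0.141). It passed without kidney array 3, at 1.08 (adjusted p = 0.00988). Slc12a2, the widespread sodium potassium chloride cotransporter, had means of -0.21 ± 0.09 in liver, 0.23 ± 0.03 in kidney and -0.29 ± 0.43 in brain. Slc12a5, the neuronal potassium chloride cotransporter, had a brain mean of -0.05 ± 0.38, and Slc12a9, 0.33 ± 0.14. None of these passed.

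The Slc13a family carries sulphate and dicarboxylates with sodium. Slc13a1, the sulphate carrier of the proximal tubule, had -1.36, -0.70 and -1.20 in liver, -0.13, 0.03 and -0.19 in kidney, and -0.08, -0.39 and -0.16 in brain. The liver arrays lay below all 6 others. SJL/J stood at 0.471 times C57BL/6J in liver (mean -1.09 ± 0.34, adjusted p = 0.000115), and the differences of liver minus kidney (-0.99, adjusted p = 0.00352) and liver minus brain (-0.88, adjusted p = 0.00918) passed. The line of spots had a liver median of -0.50. With line and column medians removed the liver mean was -0.63 and still passed, while the differences were -0.49 and -0.38 and did not (adjusted p = 0.0749 and 0.187).

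Slc13a2, which recovers citrate in the proximal tubule, had 0.04, 0.02 and 0.28 in liver, 0.70, 0.44 and 0.47 in kidney, and 0.14, 0.05 and -0.16 in brain. The kidney arrays lay above all others, and the kidney mean of 0.54 ± 0.14 passed here (adjusted p = 0.0028) and under every alternative run (highest 0.034). Slc13a3, the basolateral dicarboxylate carrier, had 0.46, 0.14 and 0.34 in liver, 0.18, 0.16 and 0.20 in kidney, and -0.12, -0.18 and -0.06 in brain. The liver mean of 0.31 ± 0.16 (adjusted p = 0.0228) and liver minus brain of 0.44 (adjusted p = 0.044) passed. Both ended with the medians removed (0.108 and 0.0741) and without liver array 1 or 3 (0.104 to 0.161), and the difference also without brain array 1 or 2 or any 1 kidney array (0.0661 to 0.115).

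The Slc26a family exchanges chloride, bicarbonate, iodide, sulphate and oxalate, and 5 genes were measured. Slc26a4, pendrin, the chloride bicarbonate exchanger of base-secreting collecting duct cells, had -0.02, -0.04 and -0.22 in liver, 0.40, 0.42 and 0.25 in kidney, and 0.04, 0.03 and 0.07 in brain. The kidney arrays lay above all others, and the kidney mean of 0.36 ± 0.09 (adjusted p = 0.0101) and liver minus kidney of -0.45 (adjusted p = 0.0236) passed. With line and column medians removed the kidney value was 0.18 (adjusted p = 0.184) and the difference -0.12 (0.551). Both calls ended without kidney array 1 or 2 (0.0685 to 0.0811), and the difference also without liver array 3 (0.0824). Of 9 markers of the distal tubule and collecting duct, 3 were higher and 0 lower in kidney (Aqp2 1.12, Aqp3 1.07, Calb1 0.59), with a range of -0.09 to 1.12. Aqp3 also passed in brain (1.02) and liver (0.54). Among the markers that did not pass in kidney were Foxi1 (0.03) and Atp6v1b1 (0.15). The part of these markers in the kidney ratios of Slc26a4, Slc12a7 and Slc4a1 (-0.44) was not tested.

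Slc26a2, a sulphate carrier, had -0.19, -0.49 and -0.06 in liver and 0.30, 0.35 and 0.17 in kidney. The groups did not overlap, and while neither mean passed the difference of -0.52 did (adjusted p = 0.0375), though not without any 1 kidney array or liver array 1 or 2 (0.0653 to 0.122) or with the medians removed (0.0802). Slc26a5, prestin of cochlear hair cells, and Slc26a6, an oxalate exchanger, had kidney means of 0.02 and 0.03. The phosphate carriers did not pass: Slc34a1, the main one of the proximal tubule, had 0.01, -0.22 and -0.56 in kidney (mean -0.26 ± 0.29, 95% interval -0.54 to 0.02), and Slc34a2, that of lung and gut, had a kidney mean of -0.01 ± 0.08.

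The difference of liver minus kidney passed for 4 genes in the positive direction (6.45%; 8.52% of all genes) and 6 in the negative (9.68%; 11% of all genes). Liver minus brain passed for 4 and 1 genes (6.45% and 1.61%), against 5.61% and 6% of all genes. Kidney minus brain passed for 0 of the 62 genes in either direction by limma, against 2.97% and 2.5% of all genes, and 14 genes had an unadjusted p under 0.05 (22.6%; 24.7% of all genes). The smallest adjusted p there was 0.0526, for Slc13a2. Without brain array 3, 7 genes passed for kidney minus brain, while the share of all genes was 15.4%. The 10 calls for liver minus kidney were 3 to 6 when any 1 liver or kidney array was left out, and the 5 for liver minus brain were 1 without liver array 1 and 3 without any other liver or kidney array.

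**Figure D3:**
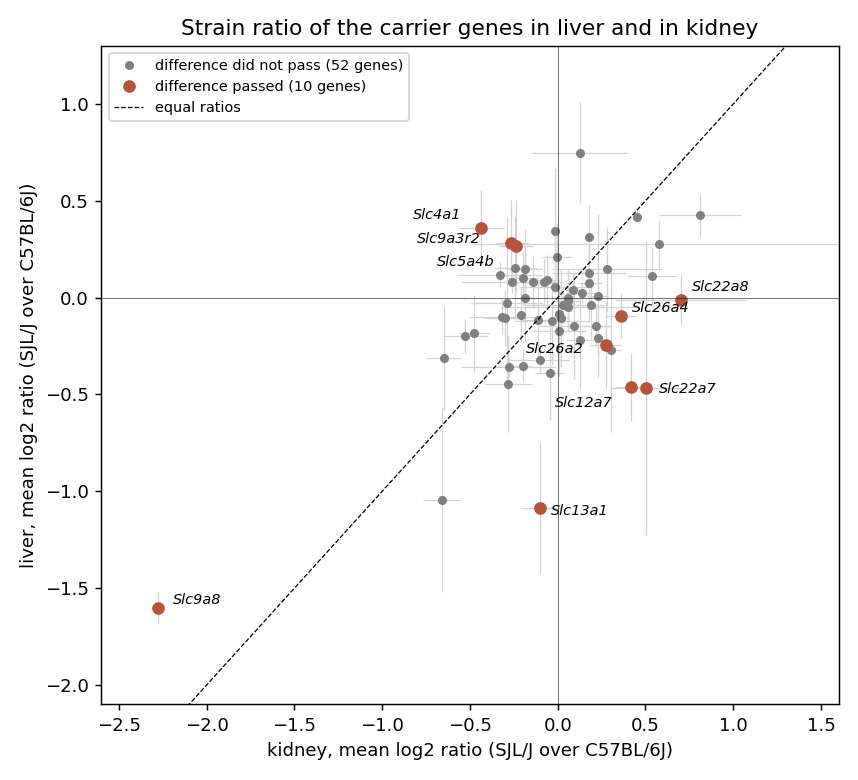
Mean log2 ratio of SJL/J over C57BL/6J in liver (vertical axis) and in kidney (horizontal axis) for the 62 genes, with the SD of the 3 arrays in grey. The 10 genes whose liver minus kidney difference passed are named; Slc4a1 lies upper left and Slc12a7 lower right, and Slc9a8 is far below 0 on both axes.

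**Figure D4:**
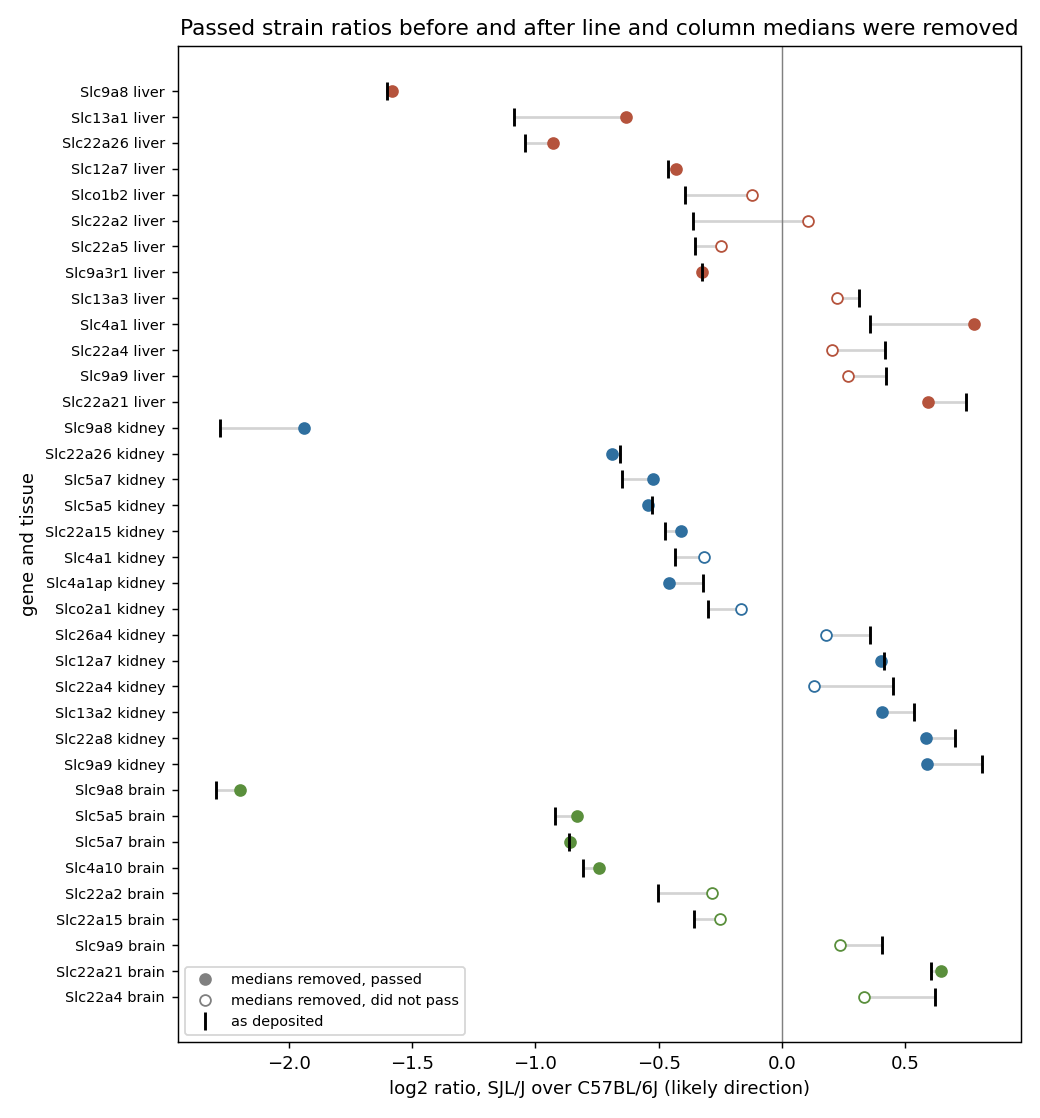
Log2 ratio of SJL/J over C57BL/6J for each gene and tissue that passed, as deposited (bars) and after subtraction of line and column medians (circles, open where the test was not passed). Slc22a2 in liver crosses 0, and Slc22a4 stays above 0 but is open in all 3 tissues.

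Genes that work with the carriers were counted in the same fit. In it 10.1% of all genes were higher and 14.4% lower in liver, 13.5% and 13.9% in kidney, and 7.55% and 9.61% in brain. The counts of the lists below stand beside these shares. Of 18 partners and regulators, 2 were higher and 3 lower in liver, 4 and 2 in kidney, and 2 and 0 in brain. Stk39, the kinase that phosphorylates Slc12a cotransporters, rose in liver (0.63) and kidney (0.48). Cab39l, which activates that kinase, fell by 0.50 in liver and rose by 0.58 in kidney. Nedd4l, a ubiquitin ligase of epithelial sodium transport, fell by 0.95 in liver and 0.37 in kidney, and has a probe at a multiple of 8. Chp1, a cofactor of Slc9a exchangers, fell by 1.05 in liver.

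Of 30 other carriers and pumps of these epithelia, 1 was higher and 10 lower in liver, 2 and 8 in kidney, and 0 and 4 in brain, with medians of -0.18, -0.17 and -0.05. Of all genes, 10.1% and 14.4% were higher and lower in liver, 13.5% and 13.9% in kidney, and 7.55% and 9.61% in brain. The higher ones of the 30 were Slc10a2 in liver (0.53) and Slc27a5 (0.80) and Slc7a7 (0.41) in kidney. Slc10a1, the sodium bile acid carrier, fell by 0.78 in liver, 0.84 in kidney and 0.68 in brain, and Abcg2, an efflux pump, by 0.63, 1.34 and 1.76; both have a probe at a multiple of 8. Abcb4, which moves phospholipid into bile, fell by 0.91 in liver, and Slc47a1, which passes organic cations to bile and urine, by 0.81. Of 15 carbonic anhydrases, which supply bicarbonate to the Slc4a carriers, 2 were higher and 2 lower in liver, 2 and 2 in kidney, and 0 and 2 in brain; Car13 fell by 0.81 in kidney and 0.72 in brain. Of 12 transcription factors known to act on carrier genes, 1 was higher and 3 lower in liver, 0 and 4 in kidney, and 0 and 2 in brain. Ppara, the fatty acid receptor, fell by 1.43 in liver, Nr1i3 by 1.20 and Esrra by 1.06 in kidney, while Hnf4a did not pass (-0.02 in liver, -0.11 in kidney). Of 12 genes of the phosphate hormone axis, 0 were higher and 3 lower in liver, 2 and 1 in kidney, and 0 and 0 in brain; Fgfr4 rose by 1.47 in kidney.

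Markers of the main epithelia moved as follows. Of 11 hepatocyte markers, 6 were higher and 1 lower in liver (Alb 1.06, Serpina1a 1.14, Tdo2 -1.69), with a median of 0.57, beside the 8 lower and 5 higher carrier genes there. Of 9 proximal tubule markers, 1 was higher and 2 lower in kidney (Aqp1 0.37, Kap -0.84, Ass1 -0.34), with a median of -0.17, and Lrp2 and Cubn, the endocytic receptors of that segment, were at 0.00 and -0.04. Their part in the carrier ratios was not tested.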

How the data were processed

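The authors deposited 1 log ratio per probe and array, read as log2 from its range; their tools, per the submitters' processing notes, included limma and R 2.0.0, and the normalization was not given in the sources used here. The sorted values of the 9 arrays were identical (largest difference 0). Probe genes came from the platform annotation: of 23040 probes, 16874 had 1 symbol, 134 several and 6032 none. Probes of a gene were averaged, and limma 3.58.1 (R 4.3.3; lmFit, eBayes) was fitted to all 15096 genes without a filter, with 1 mean per tissue, 6 residual and 5.17 prior degrees of freedom, two-sided tests, and Benjamini-Hochberg adjustment over all genes; passing means an adjusted p under 0.05. Intervals are 95% limits of the fit. A shared ratio was tested on 3 tissue means a gene. Signal over background and depth are unknown; the number of arrays limits the precision. The script was tested on simulated data. The alternatives were a probe-level fit, leaving out probes at multiples of 8, removing medians of lines and columns of spots, each tissue alone, the median of probes, robust eBayes, a replicate block and leaving out each array. Genes named were those that passed with 1 sign on all arrays of a tissue or passed a tissue difference (up to 10 each way), the 3 largest of each family, and a list of known renal and hepatic carriers, of which some are not reported here. The members and lists were chosen with earlier results of these data known. Promoter sequences are RefSeq's on GRCm38.p6.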

Additional observations from a re-analysis of the deposited data

Results flagged for a closer look

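For 10 of the 62 genes the strain ratio differed between liver and kidney, and for 5 between liver and brain, by limma's test of the difference itself. Of all genes, 19.5% and 11.6% passed these tests. Liver minus kidney was positive for Slc4a1 (0.794, adjusted p = 0.00699), Slc9a8 (0.675, 0.022), Slc9a3r2 (0.548, 0.0384) and Slc5a4b (0.504, 0.0341). It was negative for Slc13a1 (-0.987, adjusted p = 0.00352), Slc22a7 (-0.97, 0.0445), Slc12a7 (-0.878, 0.00339), Slc22a8 (-0.712, 0.0377), Slc26a2 (-0.52, 0.0375) and Slc26a4 (-0.453, 0.0236). Liver minus brain was positive for Slc5a5 (0.718, adjusted p = 0.0172), Slc9a8 (0.693, 0.0272), Slc5a4b (0.506, 0.047) and Slc13a3 (0.437, 0.044), and negative for Slc13a1 (-0.877, 0.00918). Slc4a1 and Slc12a7 are the genes among these that passed on opposite sides of 0 in liver and kidney, and their differences of liver minus kidney were the 2 that passed under every alternative run. In Slc13a1 both differences passed under every alternative other than the removal of line and column medians.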

How the results depend on the processing

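Of 36 named tissue ratios that passed, 11 passed under every alternative run: Slc9a8 in all 3 tissues (with no value where probes at multiples of 8 were left out), Slc13a1, Slc22a21 and Slc22a26 in liver, Slc13a2, Slc5a7 and Slc9a9 in kidney, and Slc5a5 and Slc5a7 in brain; of 15 tissue differences 2 did so. Removing line and column medians ended 23 of the 51 named calls, and also that of Slc22a2 in liver, which turned to 0.11 (adjusted p = 0.622). It took the count in brain to 5 (9 as deposited), liver minus kidney to 5 and kidney minus brain to 1. It added Slc22a12 (0.54), Slc9a2 (0.64) and Slc22a23 (-0.43) in liver and Slc5a4a (-0.33) and Slc9a3r2 (-0.38) in kidney, and moved the liver median to 0.015. Each tissue fitted alone gave 3 calls in brain (3.07% of all genes, 17.2% in the joint fit), 20 in kidney (35.6%, against 27.4%) and 13 in liver (25.4%, against 24.5%). Without probes at multiples of 8 no carrier gene passed for a shared ratio (0); the only probe of Slc9a8 is one of them, and 0 of the 13407 genes left passed either (107 of 15096 with all probes). With the replicate block the counts were 10 in liver, 13 in kidney, 9 in brain, 9 for liver minus kidney, 3 for liver minus brain and 0 for kidney minus brain. Deviations of same-numbered arrays correlated at -0.0791 to 0.0463 and those of other pairs across tissues at -0.119 to 0.148. No pairing by number was seen, but with 3 arrays a tissue these values cannot exclude one. Leaving out 1 array gave 5 to 15 calls in liver, 5 to 15 in kidney, 4 to 9 in brain, 3 to 14 for liver minus kidney, 1 to 6 for liver minus brain and 0 to 7 for kidney minus brain (7 without brain array 3). The cause of these changes was not tested. Signal over background is not known, so dim spots cannot be set apart.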
